A study of Drosophila melanogaster with 29 samples.

Results

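The genes described here encode the subunits of the mitochondrial respiratory chain and of ATP synthase that are carried in the nucleus. They were chosen by name, as every probe set with exactly 1 current gene symbol beginning with ND-, SdhA, SdhB, SdhC, SdhD, UQCR, COX in capitals or ATPsyn. The brightest probe set by its mean over all arrays stood for each gene. This gave 66 genes, from 68 probe sets, of 10844 genes measured on the array. RefSeq's gene table for genome Release 6 holds 87 such nuclear genes, and the other 21 were not analysed here. For 3 of these, ATPsynG, ND-13B and COX6B, the probe set is shared with another gene.

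RNA of adult *Drosophila melanogaster* was profiled on 29 Affymetrix Drosophila Genome 1 arrays, 15 of males and 14 of females. The flies were males and virgin females of 5 laboratory strains, namely France (Kerbiniou), Antigua, Glasgow, Cambridge and Hikone, reared at 25°C and collected 0 to 6 hours after eclosion. Each group of a strain and sex had 3 arrays, except the Hikone females with 2, and RNA was extracted separately from each replicate group of flies. Glasgow and Cambridge are both stocks of Oregon-R, and the labels give that name to Hikone as well, whereas the study lists Hikone apart. France females replicate 3 was labelled 3 to 5 days old. All strains had been kept in the laboratory for many years, and no tissue was dissected, so that fewer cells of a type and less RNA per cell cannot be told apart in any value below.

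Oxidative phosphorylation passes electrons from NADH through complex I, or from succinate through complex II, to complex III and cytochrome c, and on to oxygen at complex IV. The protons pumped on the way drive ATP synthase, also called complex V. In flies the pathway is most prominent in the flight muscles, whose mitochondria fill much of the fibre. Several subunits have a second gene, named after the first with an L for "like", and many such duplicates in *Drosophila* are transcribed mainly in the testis.

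Values are GCRMA summaries on the log2 scale, in which a difference of 1 is a doubling. Levels were compared between arrays for 1 probe set at a time, never between genes. Transcripts of testis, accessory gland, ovary and yolk followed the labels of sex, with clear departures on 2 arrays. Cambridge males replicate 1 held yolk and ovary transcripts (summed log2 level of 3 yolk genes 11.74, and 8.36 or less in the other males). Cambridge females replicate 3 held testis transcripts, with the sperm protein gene Mst84Da at 5.60 and at 1.52 to 2.14 in the other females. Counts below were repeated without these arrays and France females replicate 3, called the 3 doubted arrays. Cambridge males replicate 2 and Hikone males replicate 1 had a weaker yolk signal and were kept in those counts. The yolk gene Yp1 was 4.95 and 5.38 on them, and 2.06 to 2.42 on the other males except Cambridge replicate 1. The median of all probe sets was 4.50 in males and 4.37 in females, a shift of 0.12 that touches small differences, so that counts were also made with every array centred on its median. The lowest correlation between replicates was 0.975 in Cambridge males, 0.962 in Cambridge females and 0.987 or more in the other groups.

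Of the 66 genes, 17 were set apart as paralogues by name and 1, COX7C, was set apart because it was far higher in males. The remaining 48 are called main subunits here. They comprised 26 of complex I, 3 of complex II, 3 of complex III, 6 of complex IV and 10 of complex V. Subunits encoded in mitochondrial DNA had no probe set.

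Most main subunits were higher in males. With a limma model of the 10 groups and Bonferroni adjustment over 13966 probe sets, 28 of 48 main subunits rose in males at an adjusted p below 0.01 and 0 fell. Over all probe sets tested, 18.1% rose in males and 28.8% fell. At an unadjusted p below 0.05, 46 of the 48 were higher in males, against 28.4% of all probe sets. The median difference of the main subunits was 0.59 (log2), or 1.51-fold, against −0.08 over all probe sets. The difference was positive for 46 of them. The 2 exceptions were COX7A, a small complex IV subunit, with a difference of −0.07, and ATPsynbeta, the catalytic subunit of ATP synthase, with −0.01. Neither difference passed the test. The medians by complex lay between 0.40 and 0.99.

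**Figure D1:**
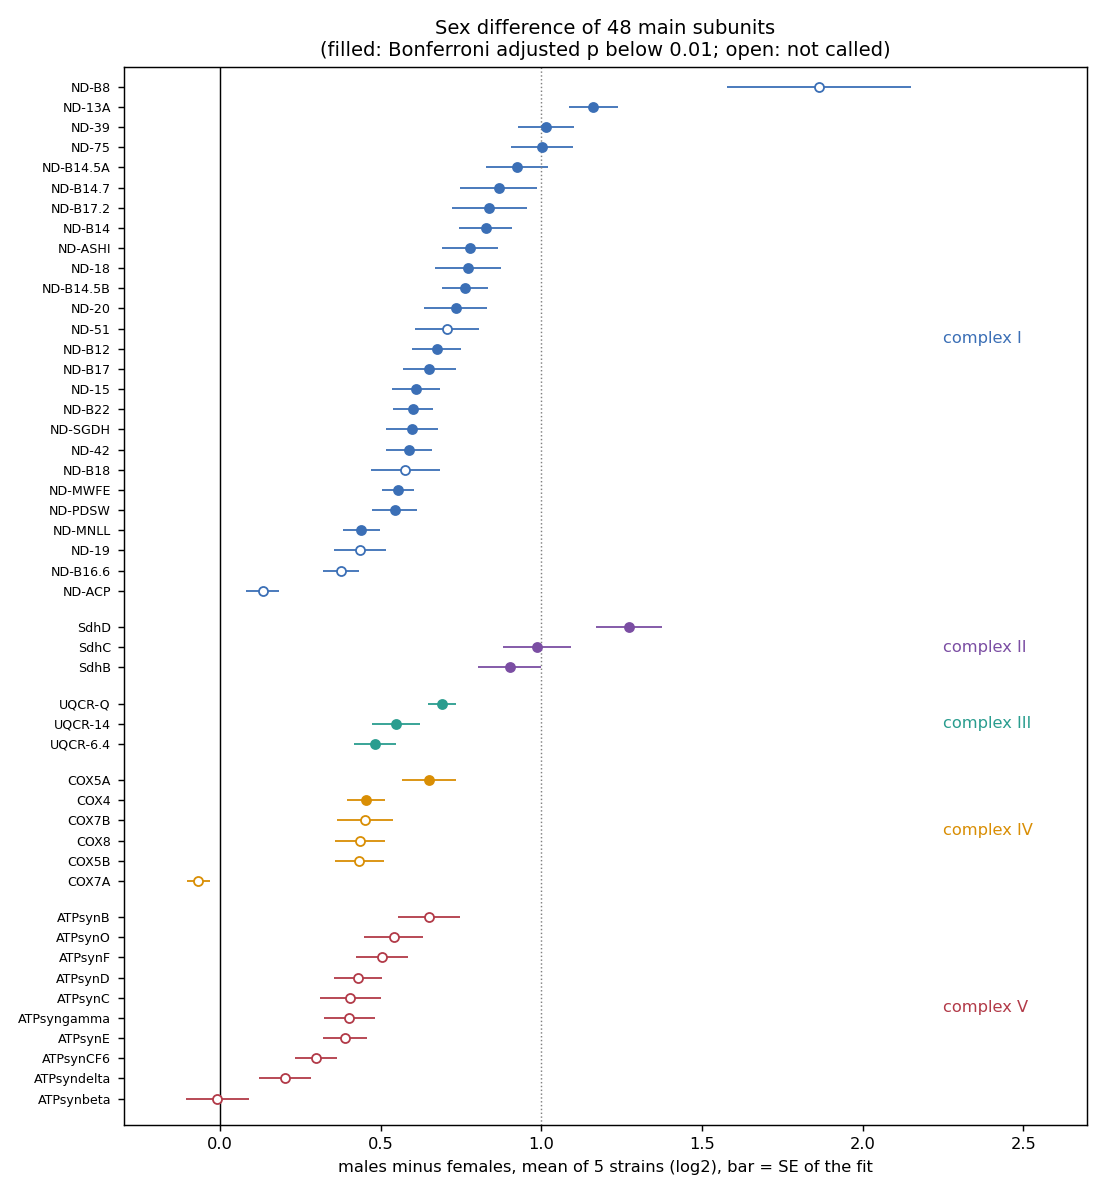
Difference between males and females (log2, mean of the 5 strains) for each of the 48 main subunits, grouped by complex, with the standard error of the fit as a bar. Filled points passed the threshold, and the 3 subunits of complex II and most of complex I lie to the right of the 10 of complex V, all of which are open.

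In complex I, which takes electrons from NADH, 20 of 26 main subunits rose in males, with a median difference of 0.69. Among these 20, the largest rise was in ND-13A, a small subunit of the peripheral arm. On the male arrays ND-13A lay between 9.75 and 10.56 with a median of 10.08, and on the female arrays between 8.28 and 9.58 with a median of 8.86. No female array reached the lowest male array, and ND-13A was the 1 main subunit of which this held, against 9.75% of all probe sets. The difference was 1.16 ± 0.08 (SE), or 2.24-fold (adjusted p = 1.52e-08 from limma).

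ND-39, an accessory subunit near the junction of the arms, was 8.97 to 10.33 in males with a median of 9.57 and 7.90 to 9.59 in females with a median of 8.55. Its difference was 1.01 ± 0.09 (adjusted p = 2.3e-06 from limma). ND-75, the largest of the iron-sulphur subunits that conduct electrons, was 9.30 to 10.44 in males with a median of 9.96 and 8.20 to 9.86 in females with a median of 9.0. Its difference was 1.0 ± 0.1 (adjusted p = 1.9e-05). For both genes the ranges of the sexes overlapped, and it was the France females that reached furthest into the male range. The 6 main subunits of complex I without a call were ND-ACP, ND-B16.6, ND-19, ND-B18, ND-51 and ND-B8. ND-ACP, the acyl carrier protein, had the smallest difference, 0.13, which turned to −0.07 when quantile normalization was repeated. ND-51, which binds NADH and flavin, had a difference of 0.71 and an adjusted p that reached the threshold of 0.01 without falling below it.

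All 3 main subunits of complex II, succinate dehydrogenase, rose in males, with a median difference of 0.99. SdhD, an anchor in the membrane, was 8.83 to 10.04 in males with a median of 9.54 and 7.14 to 9.30 in females with a median of 8.18. The difference was 1.27 ± 0.10, or 2.42-fold (adjusted p = 8.82e-07 from limma). SdhC, the other anchor, differed by 0.99 ± 0.10 (adjusted p = 9.1e-05), and SdhB, the iron-sulphur subunit, by 0.90 ± 0.10 (adjusted p = 0.000134). SdhA, the flavoprotein, was not analysed here. The lowest SdhD values were those of Glasgow females, at 7.81, 7.54 and 7.14, and of Cambridge females replicate 1, at 7.41.

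All 3 main subunits of complex III rose too, by 0.69 ± 0.04 for UQCR-Q, 0.55 ± 0.08 for UQCR-14 and 0.48 ± 0.07 for UQCR-6.4 (adjusted p = 4.28e-09, 0.00611 and 0.00474 from limma). UQCR-Q lay between 12.88 and 13.31 in males with a median of 13.22 and between 11.85 and 12.88 in females with a median of 12.49, so that the brightest female array only met the dimmest male array. Without the 3 doubted arrays, UQCR-6.4 lost its call and the other two kept theirs.

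In complex IV, cytochrome c oxidase, 2 of 6 main subunits rose in males. COX5A was 10.86 to 12.13 in males with a median of 11.51 and 10.38 to 11.58 in females with a median of 10.71, a difference of 0.65 ± 0.08 (adjusted p = 0.00224 from limma). COX4 differed by 0.46 ± 0.06 (adjusted p = 0.00257). COX5B, COX7B and COX8 had differences of 0.43, 0.45 and 0.44 with adjusted p of 0.22, 0.575 and 0.238. The male and female ranges of COX7A, at 11.13 to 11.59 and 11.13 to 11.73, coincided almost fully.

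None of the 10 main subunits of ATP synthase passed the threshold, although 9 of the 10 differences were positive and 9 had an unadjusted p below 0.05. Their median difference was 0.40. ATPsynB, of the stalk that holds the catalytic head in place, had the largest, 0.65 ± 0.10 (adjusted p = 0.0176 from limma), with male values of 10.93 to 12.27 and female values of 10.13 to 11.69. ATPsynC, which forms the rotating ring, differed by 0.41 ± 0.10. ATPsynbeta was 8.42 to 9.40 in males and 8.65 to 9.72 in females. Whether the complexes differed from each other in their sex difference was not tested.

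The number of calls depended on the scaling and on single arrays, whereas the direction did so for few genes. With each array centred on its median, 14 main subunits rose in males (10 of complex I, 3 of complex II and 1 of complex III), against 15.7% of all probe sets, and the median difference was 0.47. Under this scaling 0 fell, against 56.5% of all probe sets. With quantile normalization repeated the count was 15, against 17.4% of all probe sets. Without Hikone females replicate 1 it was 18, without Hikone females replicate 2 it was 16, and without the 3 doubted arrays it was 30. Of the 28 calls, 13 were kept in each fit that left out 1 array and under both scalings, namely ND-MWFE, ND-B12, ND-B14.5B, ND-ASHI, ND-B14, ND-B14.5A, ND-75, ND-39, ND-13A, SdhB, SdhC, SdhD and UQCR-Q. The 10 main subunits on the X chromosome had a median difference of 0.66 with 7 rising, and the 38 on other chromosomes 0.59 with 21 rising.

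Transcripts of flight muscle moved the same way. Of 12 flight muscle genes measured, 9 rose in males, against 18.1% of all probe sets. The other 3 had positive differences, and the median of the 12 was 1.60. Their summed log2 level was 14.48 to 15.78 in males and 12.04 to 15.32 in females. Act88F, the actin of the indirect flight muscles, was 9.73 to 13.71 in males and 6.80 to 13.37 in females, the lowest being Cambridge females replicate 1. The titin homologue sls and the troponin C gene TpnC4 reached down to 4.25 and 4.41 on single female arrays, about the female median of all probe sets. The part of flight muscle RNA in the differences of the main subunits was not tested.

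The difference between the sexes had the same sign in each strain for most main subunits. It was positive for 46 of 48 in France, 46 in Antigua, 47 in Glasgow, 43 in Cambridge and 47 in Hikone. Its median was 0.50, 0.41, 0.93, 0.42 and 0.66 in the same order of strains. The median difference of the flight muscle genes was 0.85, 0.97, 2.99, 1.75 and 1.18 in that order. Whether the sex difference itself varied among the strains was tested as an interaction in limma, which gave a call for 0 main subunits, against 2.56% of all probe sets (4 had an unadjusted p below 0.05, against 55.4%, and 2 passed Benjamini-Hochberg adjustment at 0.05, against 39.7%).

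Levels of the main subunits were highest in France in both sexes. The level of an array was taken as the median, over the 48 genes, of the deviation from each gene's mean over the 10 groups. In males it was 0.71, 0.70 and 0.83 in France, 0.31, 0.29 and 0.15 in Antigua, 0.32, 0.06 and 0.24 in Glasgow, −0.26, −0.05 and 0.44 in Cambridge, and 0.33, 0.24 and 0.18 in Hikone. The 3 France male arrays thus stood above all 12 other male arrays. In females it was 0.39, 0.22 and 0.20 in France, −0.03, −0.06 and −0.50 in Antigua, −0.62, −0.76 and −0.75 in Glasgow, −0.83, −0.34 and −0.05 in Cambridge, and −0.38 and −0.45 in Hikone. France females stood above the 11 other female arrays, and Glasgow females together with Cambridge females replicate 1 were lowest. Replicates of Cambridge were the most spread in both sexes.

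**Figure D2:**
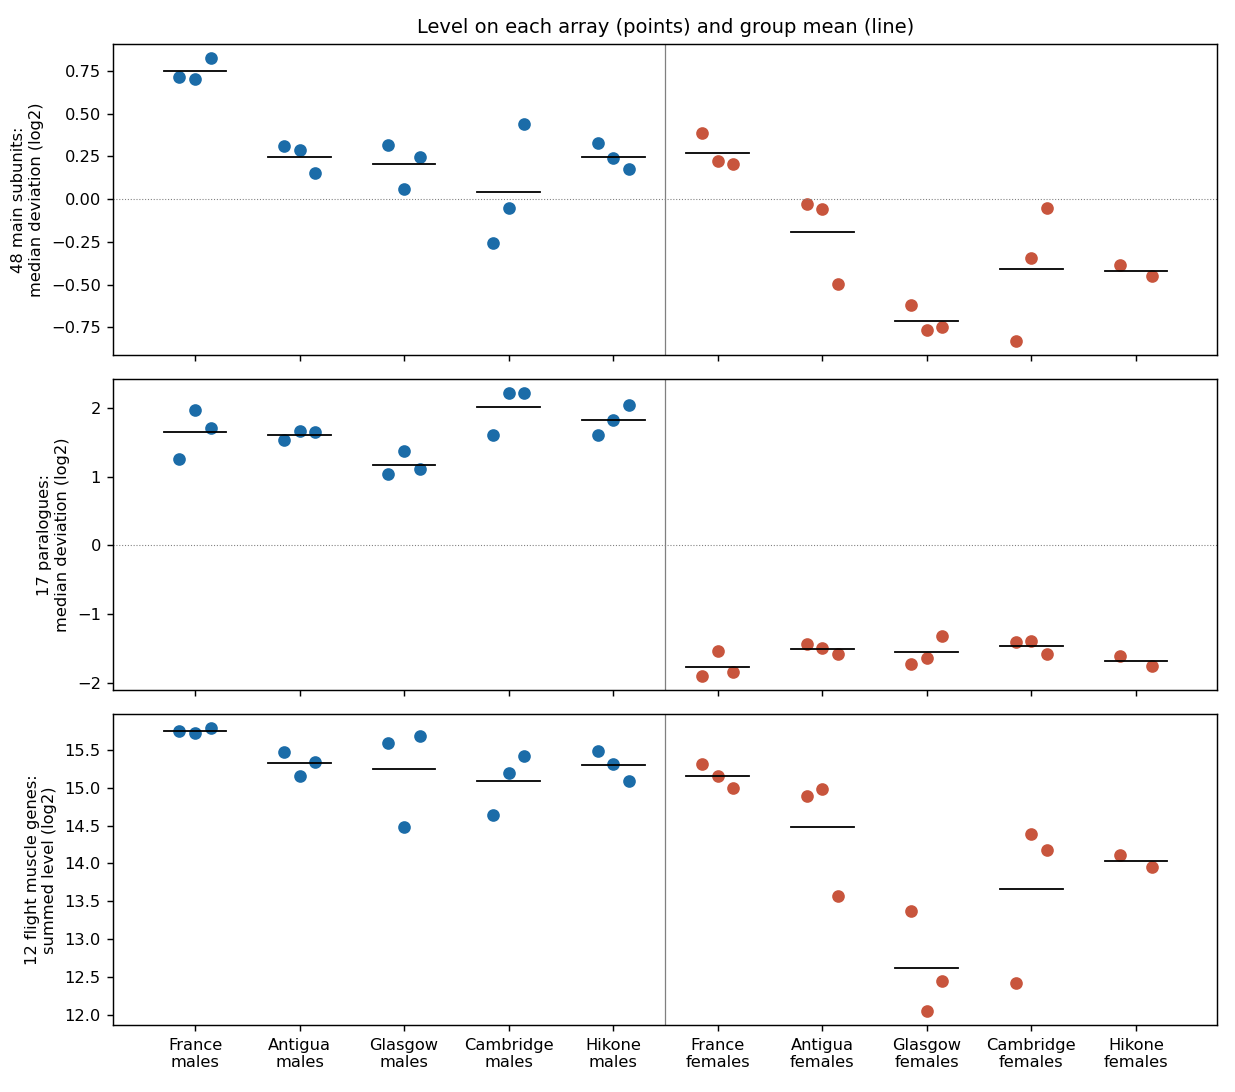
Level of each array (points) with the group mean (line), on the log2 scale, for the 48 main subunits and the 17 paralogues as median deviations and for 12 flight muscle genes as the log2 of their summed level, with male groups at the left and female groups at the right of the grey line. France is highest for the main subunits in both sexes, at 0.70 to 0.83 in males and 0.20 to 0.39 in females, and the flight muscle genes are lowest in Glasgow females.

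Gene by gene, all France male arrays lay above every other male array for 33 of 48 main subunits, against 6.16% of all probe sets. All France female arrays lay above every other female array for 38 of 48, against 4.3%. With arrays centred on their medians these counts were 33 and 39, and without the 3 doubted arrays 33 and 42. ATPsynO, a stalk subunit of ATP synthase, was 12.26, 12.35 and 12.47 in France males and 11.24 to 11.90 in the other males. In females it was 12.03, 12.04 and 11.88 in France and 10.48 to 11.65 in the other strains. SdhC was 9.87, 9.88 and 10.08 in France males and 8.37 to 9.40 in other males, and 9.34, 9.32 and 9.19 in France females and 7.32 to 8.68 in other females. In both genes the France arrays of each sex were apart from the rest, and France females overlapped the males of other strains.

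The summed level of the flight muscle genes was also highest in France, at 15.72 to 15.78 in France males and 14.48 to 15.68 in other males, which did not overlap. The summed levels of the 3 France female arrays reached 15.32 and all stood above those of the other females, at 12.04 to 14.98. Over the 14 female arrays the lowest summed levels, 12.04 to 13.37, were those of Glasgow and of Cambridge females replicate 1, the same arrays in which the main subunits were lowest. The sum rests on the brightest genes. Gene by gene, the mean was highest in France for 6 of the 12 in males and 6 in females, and France had the lowest male mean of bt, Strn-Mlck and sls, the genes of giant sarcomere proteins and of a kinase. For sls it was 6.89 in France males and 8.19 in Antigua males. The part of flight muscle RNA in the strain differences was not tested.

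The F-test among strains passed the threshold for few of these genes. Among females it was called for 2 of 48 main subunits, against 6.53% of all probe sets, and among males for 0, against 9.67% (limma, Bonferroni). At an unadjusted p below 0.05, 45 of 48 differed among females and 38 among males, against 69.3% and 76.3% of all probe sets. With Benjamini-Hochberg adjustment at 0.05 the counts were also 45 and 38, against 65.3% and 74.3% of all probe sets. With Bonferroni adjustment at 0.05 the count in females was 4, against 9.03%. When females were fitted alone, with the spread taken from 14 arrays, the count was 0, against 0.909%.

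The pair called in females was UQCR-Q and ND-MWFE, and both calls were lost when females were fitted alone. UQCR-Q was 12.86, 12.82 and 12.78 in France, 12.88, 12.76 and 12.50 in Antigua, 12.01, 11.85 and 12.06 in Glasgow, 12.18, 12.46 and 12.53 in Cambridge, and 12.49 and 12.49 in Hikone females (adjusted p = 0.00144 from limma). All Glasgow female arrays were below every other female array, as they also were for ND-ACP and ND-75. This held for 3 of 48 main subunits, near the share of 5.02% of all probe sets. With arrays centred on their medians it held for 2, against 3.96%. ND-MWFE, a small membrane subunit of complex I, was 11.57 ± 0.12 in France, 11.37 ± 0.07 in Antigua, 10.64 ± 0.13 in Glasgow, 10.92 ± 0.26 in Cambridge (SD, n = 3 each) and 11.10 ± 0.07 in Hikone females (SD, n = 2), with an adjusted p of 0.00424. In males the same gene spanned 11.31 to 12.04 with no call. UQCR-Q kept its call in fits that left out 1 array except without Glasgow females replicate 1 or 2. With repeated quantile normalization its call was lost as well, and with the replicate number as a block it was kept. ND-MWFE lost its call with that block, with arrays centred on their medians, without any 1 of the France female arrays, without Antigua females replicate 1 or 2, and without Glasgow females replicate 2 or 3. Both kept their calls without the 3 doubted arrays, where the count was 4. The count of main subunits called was 0 without Glasgow females replicate 2, 1 without any other of those 7 arrays or without Glasgow females replicate 1, 4 without Cambridge males replicate 3, 5 without Cambridge females replicate 3 and 6 without Cambridge females replicate 1.

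Main subunits moved together among replicates of a group. After the group means were subtracted, the median correlation over the 29 arrays between pairs of main subunits was 0.80, and 99.0% of pairs were positive. The same median was 0.03 among the 574 probe sets at or above the lower quartile of brightness of the main subunits. These points share arrays, RNA preparations and normalization, and the correlations are a description only. The level of the main subunits varied most among replicates of Cambridge, with a SD of 0.36 in males and 0.39 in females. It was 0.26 in Antigua females and 0.05 to 0.13 in the other groups. The correlations thus lean on the Cambridge arrays, 2 of them doubted, and were not repeated without them. COX7A and ATPsynbeta followed the others least, with median correlations of 0.08 and 0.39. The main subunits correlated at a median of 0.83 with 7 subunits whose names fall outside the rule. Their median correlation was 0.70 with 9 enzymes of the citric acid cycle, 0.66 with the flight muscle genes and 0.29 with testis genes. It was −0.28 with ovary and eggshell genes and −0.46 with 6 genes that maintain or express mitochondrial DNA.

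The 17 paralogues had larger sex differences than the subunits they are named after, in each of 14 cases in which the partner was measured. The excess was small for ND-20L, at 0.83 ± 0.13 against 0.73 ± 0.10 (SE) for ND-20. The size of this contrast was not tested. The choice of paralogues by name used no values, but paralogues of this kind were known from these data to be high in males. The following thus gives the size of their differences rather than independent support. In limma 16 of 17 rose in males, against 18.1% of all probe sets, with a median difference of 3.26 (log2), or 9.57-fold. For 15 every male array was above all female arrays, against 9.75% of all probe sets. ND-20L had a difference of 0.83 and an adjusted p of 0.0416, and was called without the 3 doubted arrays. Under both scalings the count was 16.

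**Figure D3:**
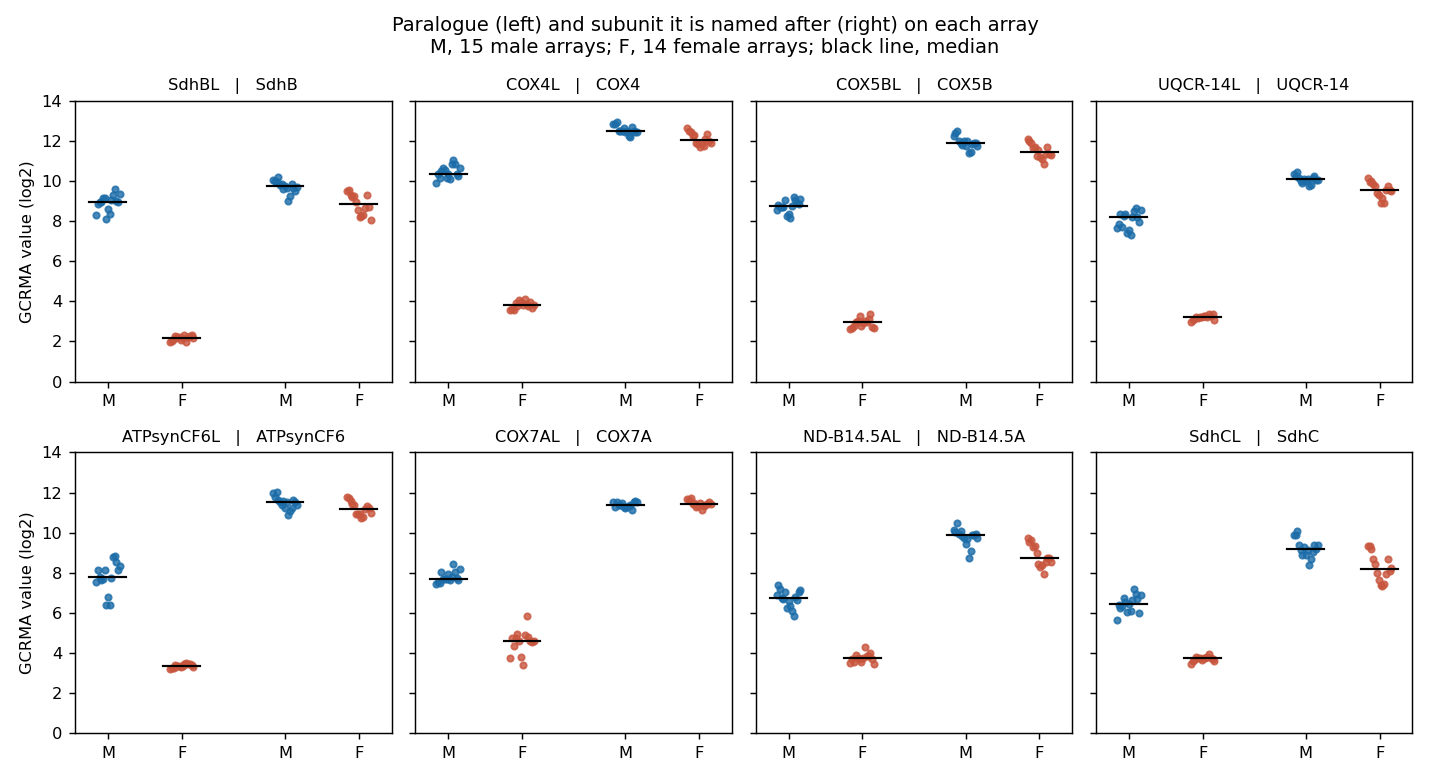
GCRMA values (log2) of 8 paralogues and of the subunits they are named after, with each of 15 male arrays (M) and 14 female arrays (F) as a point and the median as a line; heights compare the sexes within a gene, not the 2 genes. The 8 were drawn for having the largest sex differences among paralogues whose partner is a main subunit. Each of them leaves a gap between the sexes, as for SdhBL at 8.11 to 9.61 in males and 1.99 to 2.32 in females. The sexes of each partner overlap.

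SdhBL, the duplicate of the iron-sulphur subunit of complex II, had the largest difference. It was 8.11 to 9.61 in males with a median of 8.98 and 1.99 to 2.32 in females with a median of 2.19, a difference of 6.75 ± 0.07 (adjusted p = 1.8e-24 from limma). Its partner SdhB differed by 0.90. The other complex II duplicates, SdhAL and SdhCL, were 6.01 to 7.26 and 5.65 to 7.16 in males, against 2.54 to 2.90 and 3.46 to 3.92 in females, with differences of 4.03 and 2.76. All 3 duplicates of complex II measured were thus separated by sex without overlap.

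The complex IV duplicates COX4L, COX5BL, COX6AL2 and COX7AL differed by 6.63, 5.84, 3.35 and 3.26. COX4L was 9.93 to 11.04 in males and 3.55 to 4.13 in females, while its partner COX4 differed by 0.46. COX7AL was 7.42 to 8.44 in males and 3.39 to 5.85 in females, the widest female range of the 17. Its partner COX7A was 1 of the 2 main subunits that were not higher in males, and the partner of COX6AL2, levy, differed by 0.52. In complex III, UQCR-14L was 7.32 to 8.65 in males and 2.98 to 3.37 in females, a difference of 4.83 against 0.55 for UQCR-14.

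The duplicates of complex V fell into a strong and a weak pair. ATPsynCF6L and ATPsynGL differed by 4.44 and 4.35, with female values of 3.20 to 3.47 and 4.28 to 4.60. ATPsynbetaL and ATPsynepsilonL differed by 1.41 and 1.34, with male values of 4.27 to 6.03 and 2.82 to 4.47. ATPsynbeta and sun, the subunits these are named after, differed by −0.01 and 0.24, with no call. Complex I had 5 duplicates. ND-B14.5AL differed by 2.98, ND-51L1 by 2.25, ND-24L by 1.94, ND-51L2 by 1.58 and ND-20L by 0.83, and the male and female ranges of ND-51L2 overlapped, at 3.50 to 6.57 and 2.89 to 3.60.

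COX7C, a small subunit of complex IV, was set apart by its value and is described without a test. It was 5.79 to 6.95 in males with a median of 6.01 and 3.15 to 4.63 in females with a median of 3.36, a difference of 2.73. In the gene table COX7C lies next to COX7CL on chromosome arm 2R, and whether the probe set reads COX7CL was not tested. The mark was set at a difference of 2, and the nearest gene inside it was COX7C. Just outside was ND-B8, of complex I, at 1.86, with a mean of 3.85 in males and 1.98 in females. ND-B8 was dim, with 9 of its 14 female values at 1.41 to 1.56, and it remained among the main subunits without a call (adjusted p = 0.0296 from limma), though it was called without the 3 doubted arrays.

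Testis transcripts were checked beside the paralogues. Of 14 testis genes, 11 rose in males and 1, twe, fell, against 18.1% and 28.8% of all probe sets. Their summed log2 level was 14.50 to 15.56 in males and 8.82 to 9.40 in females. In females this sum was carried by bol and twe. Without this pair it was 14.45 to 15.54 in males, 8.44 in Cambridge females replicate 3 and 6.33 to 6.70 in the other females. That array exceeded all other females for 9 of the 14 testis genes, among them Mst84Dc, Mst84Da and Mst84Dd. The same held for 1 of the 17 paralogues, COX5BL, at 3.37 and at 2.63 to 3.28 in the other females. The share of all probe sets for which that array was highest was not counted. Whether the paralogues followed the testis transcripts on it was not tested. The meiotic arrest genes can and aly differed by −0.01 and 0.05 without a call, and both were dim in both sexes. On male arrays they were 3.62 to 4.04 and 3.30 to 3.72, and on female arrays 3.67 to 3.99 and 3.22 to 3.63. The median of all probe sets was 4.50 in males and 4.37 in females. Accessory gland genes, 8 of 8, rose in males as well. The tissue in which any paralogue was transcribed was not measured.

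Among males, 5 of the 17 paralogues differed among the strains, whereas 0 of the main subunits did, against 9.67% of all probe sets. None of the 5 calls held when males were fitted alone, with the spread taken from 15 arrays, against 3.41% of all probe sets. The joint fit takes its spread from both sexes. For ND-24L the SD of a group was 0.12 to 0.36 in males and 0.05 to 0.13 in females. The p-values of the joint fit in limma thus do not measure the spread among male replicates alone. With the replicate number as a block 4 were called, all but ATPsynGL, and without the 3 doubted arrays 4, all but COX6AL2. Among females 0 of 17 differed (limma, Bonferroni), with 3 at an unadjusted p below 0.05, against 69.3%, and 2 with Benjamini-Hochberg adjustment at 0.05, against 65.3%. As an interaction with sex, the strain difference was called for 0 of 17 in limma, though 13 had an unadjusted p below 0.05, against 55.4% of all probe sets, 11 passed Benjamini-Hochberg adjustment at 0.05, against 39.7%, and 2 passed Bonferroni adjustment at 0.05, against 3.79% of all probe sets. Its lowest adjusted p by Bonferroni were 0.0385 for ND-24L and 0.0498 for COX6AL2, and 2 paralogues were called for it without France males replicate 1, as was 1 without France males replicate 2, Cambridge males replicate 1 or Cambridge males replicate 2.

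**Figure D4:**
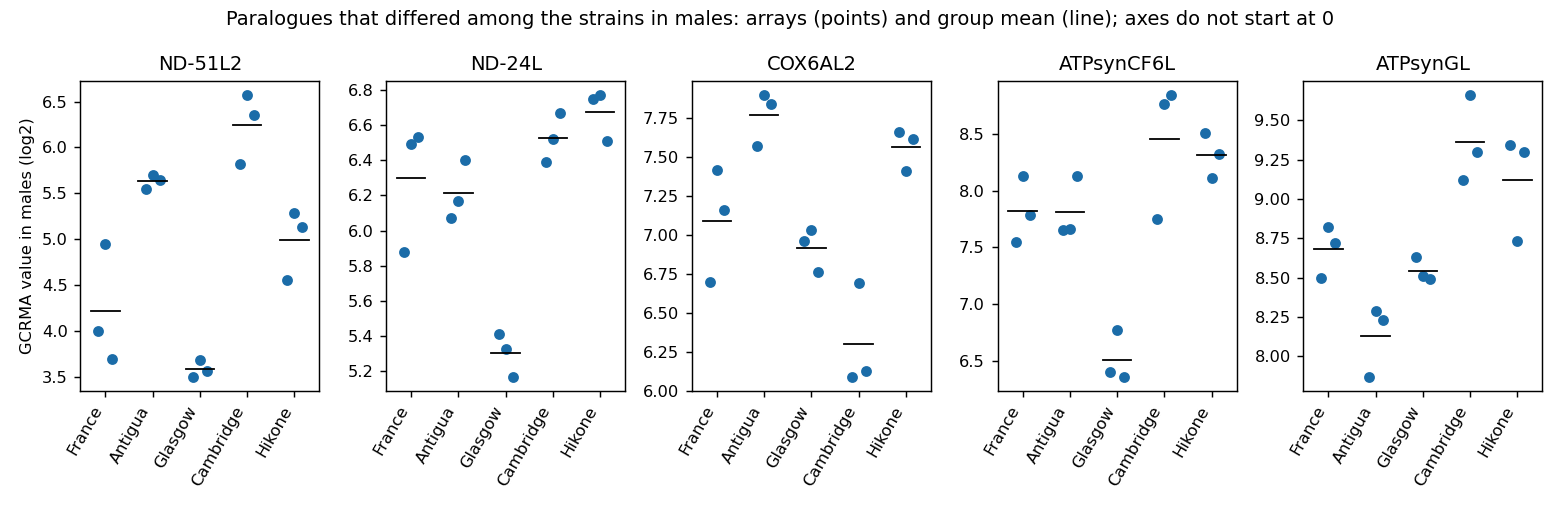
GCRMA values (log2) of the 5 paralogues that differed among the strains in males, with each male array as a point and the group mean as a line; the axes do not start at 0. Glasgow males are lowest for ND-51L2, ND-24L and ATPsynCF6L, Cambridge males for COX6AL2 and Antigua males for ATPsynGL.

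ND-51L2, named after the NADH-binding subunit, was 4.0, 4.95 and 3.69 in France males, 5.55, 5.70 and 5.65 in Antigua, 3.50, 3.68 and 3.56 in Glasgow, 5.82, 6.57 and 6.35 in Cambridge, and 4.55, 5.28 and 5.13 in Hikone (adjusted p = 5.2e-05 from limma). Cambridge males were above and Glasgow males below all other males. The means of these Oregon-R stocks were 6.25 ± 0.39 in Cambridge and 3.58 ± 0.09 in Glasgow (SD, n = 3 each). The Glasgow values lay within 0.1 of the highest female value of any strain, 3.60.

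ND-24L was 5.88, 6.49 and 6.53 in France males, 6.07, 6.17 and 6.40 in Antigua, 5.41, 5.33 and 5.17 in Glasgow, 6.39, 6.52 and 6.67 in Cambridge, and 6.75, 6.77 and 6.51 in Hikone (adjusted p = 0.000107 from limma). ATPsynCF6L averaged 7.82 ± 0.29 in France, 7.81 ± 0.27 in Antigua, 6.51 ± 0.23 in Glasgow, 8.45 ± 0.61 in Cambridge and 8.31 ± 0.20 in Hikone males (SD, n = 3 each; adjusted p = 0.000562 from limma). In both, the 3 Glasgow arrays were below all other males and the other strains overlapped. The call of ATPsynCF6L was lost without Glasgow males replicate 1 or 3.

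COX6AL2 had another order, with 6.70, 7.42 and 7.16 in France males, 7.57, 7.90 and 7.84 in Antigua, 6.96, 7.03 and 6.76 in Glasgow, 6.09, 6.69 and 6.13 in Cambridge, and 7.66, 7.41 and 7.62 in Hikone (adjusted p = 0.000301 from limma). Here Cambridge males were lowest. ATPsynGL was 8.50, 8.82 and 8.72 in France, 7.87, 8.29 and 8.23 in Antigua, 8.63, 8.51 and 8.49 in Glasgow, 9.12, 9.66 and 9.30 in Cambridge, and 9.34, 8.73 and 9.30 in Hikone males (adjusted p = 0.00347). Its call was lost with arrays centred on their medians and without Antigua males replicate 1 or 3 or Cambridge males replicate 2 or 3.

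Over the 17 paralogues, all Glasgow male arrays were below every other male array for 5, namely ND-51L2, ND-24L, UQCR-14L, COX5BL and ATPsynCF6L, against 2.64% of all probe sets. Cambridge males were above all others for 3, ND-51L2, ND-51L1 and COX4L, against 3.64%, though for 1 with arrays centred on their medians and for 5 without the 3 doubted arrays. UQCR-14L and COX5BL were not called, with adjusted p of 1 and 0.487. The summed level of testis genes was 14.50 to 14.94 in France, 15.23 to 15.31 in Antigua, 14.77 to 15.04 in Glasgow, 15.34 to 15.56 in Cambridge and 14.94 to 15.20 in Hikone males. The summed testis level was highest in Cambridge and lowest in France. Of the 5 paralogues called, ND-51L2, ATPsynCF6L and ATPsynGL were by mean also highest in Cambridge males, ND-24L in Hikone and COX6AL2 in Antigua. The order of strains for ND-51L2 was that of the testis level but for Glasgow and France, whose testis levels overlapped. For the other paralogues called it differed further. The part of testis RNA in these differences was not tested.

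Other genes of the mitochondrion did not all share the direction of the main subunits. Subunits with names outside the rule did, with 3 of 7 rising in males and 0 falling, and a median difference of 0.50. These were RFeSP, the Rieske protein of complex III, by 0.84, ox, a small subunit of complex III, by 0.73, and cype, of complex IV, by 0.50. Of 9 enzymes of the citric acid cycle, which feeds the chain, 6 rose and 0 fell. Over all probe sets 18.1% rose and 28.8% fell. Idh3b and ScsbetaA, subunits of isocitrate dehydrogenase and of succinyl-CoA synthetase, rose by 1.34 and 1.27, with Idh3b at 8.86 to 10.03 in males and 7.28 to 9.07 in females. With arrays centred on their medians the citric acid cycle count was 2 rising and 1 falling, against 15.7% and 56.5% of all probe sets.

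**Figure D5:**
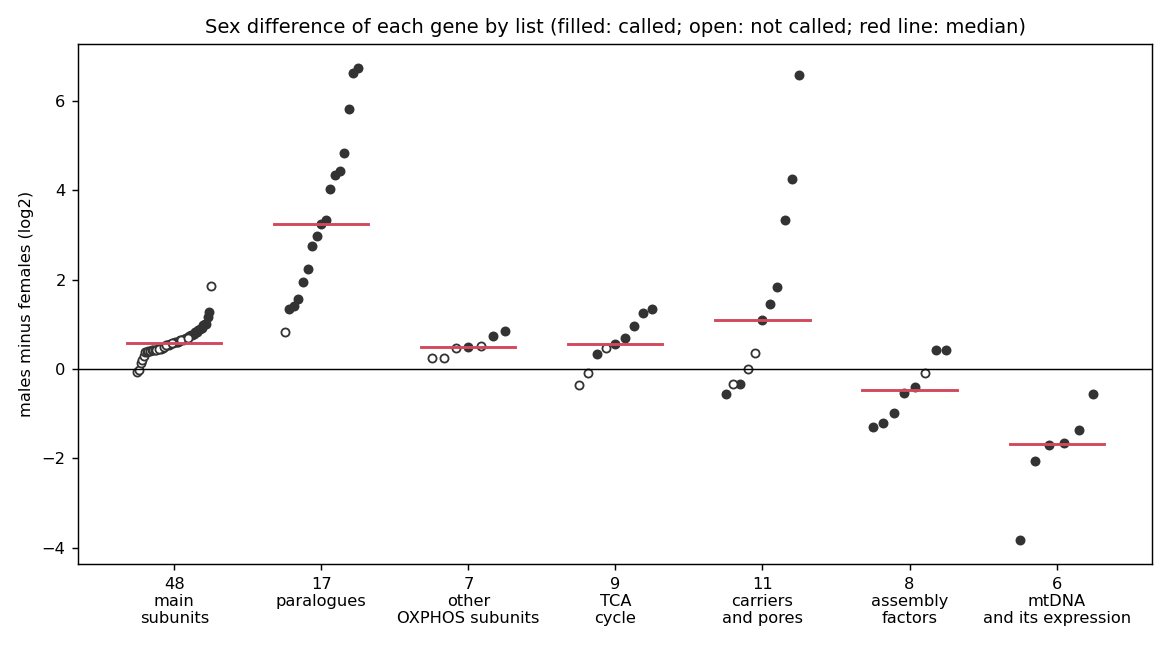
Difference between males and females (log2) for each gene of the main subunits, the paralogues and 5 lists of mitochondrial genes, with filled points for genes that passed the threshold and the median of each list as a red line. The main subunits and citric acid cycle enzymes lie mostly above 0, and all 6 genes for mitochondrial DNA and its expression lie below 0, down to −3.83 for mtSSB.

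The carriers and pores of the mitochondrial membranes included pairs of the same kind as the subunits. Porin2 was 9.49 to 10.79 in males and 3.16 to 4.20 in females, a rise of 6.59, whereas porin, the main channel of the outer membrane, fell by 0.32. Ant2, an ADP/ATP carrier, was 7.68 to 9.14 in males and 4.03 to 4.62 in females, a rise of 4.26, and sesB, the other ADP/ATP carrier, differed by 0.36 without a call (adjusted p = 0.0354 from limma). The uncoupling protein relative Ucp4C rose by 3.33. Of the 11 genes, 6 rose and 2 fell, against 18.1% and 28.8% of all probe sets.

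Assembly factors, which build the complexes, fell more often than they rose in males. Of 8, 5 fell and 2 rose, against 28.8% and 18.1% of all probe sets. Scox, which delivers copper to complex IV, fell by 1.29, Bcs1, which inserts the Rieske protein, fell by 1.22, and Sdhaf3, of complex II, fell by 0.99. Cox17, a copper chaperone, rose by 0.44. Without the 3 doubted arrays the falling genes numbered 3. All 6 genes that maintain or express mitochondrial DNA fell in males, against 28.8% of all probe sets. The single-stranded DNA binding protein mtSSB was 4.66 to 6.90 in males and 8.68 to 9.70 in females, a change of −3.83. The polymerase PolG1 fell by 2.05, mtDNA-helicase fell by 1.70 and the packaging factor TFAM fell by 1.65. All 6 also fell with median centring and with repeated quantile normalization, under which 56.5% and 38.6% of all probe sets fell.

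Mitochondrial ribosomal proteins fell in males in 58 of 64 cases and rose in 0, with a median difference of −1.03. Cytoplasmic ribosomal proteins fell in 31 of 37 and rose in 5, with a median of −0.54. Over all probe sets 28.8% fell and 18.1% rose. Of 3 regulators measured, Ets97D, the *Drosophila* member of the GA-binding protein family, fell by 0.88, and ewg and foxo were not called. Ovary and eggshell genes, 13 of 14, fell in males, with summed levels of 7.19 to 12.29 in males and 14.37 to 15.75 in females. The part of ovary RNA in the lower levels of these lists in males was not tested.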

How the data were processed

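The authors extracted RNA from replicate groups of flies, hybridized it to Affymetrix Drosophila Genome 1 arrays and summarised probe sets with GCRMA, including a correction for GC content and quantile normalization. The deposited log2 values were analysed without further scaling. The version of GCRMA is not given in the sources used here. Array values carry no depth, and the number of arrays sets their precision. Of 14010 probe sets, 44 controls were dropped and 13966 tested. The platform's table named 1 gene for 12443 probe sets, of which 12394 matched RefSeq's gene table, several genes for 327 and no gene for 1196.

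The model in limma 3.58.1 (R 4.3.3) had 1 mean per group and used all 29 arrays, with moderated variances. The sex contrast set the average of the male groups against that of the female groups, with strains weighted equally. Strains were tested by moderated F within each sex and as an interaction. Values of p were adjusted by Bonferroni over all probe sets and called below 0.01, after the study's methods. In simulations with independent normal noise for each probe set, 200 of 13966 were shifted by 1 (log2) for each comparison. Strain shifts were made in Hikone alone, and that of the interaction was split between its males and females. Recovery was 97.0% for sex, 50.0% for Hikone females, the group with 2 arrays, 59.5% for Hikone males and 38.0% for the interaction. Other strains were not simulated. Alternatives were median centring, repeated quantile normalization, a filter at a highest group mean of 5, a variance trend with robust moderation, the replicate number as a block, other adjustments, each sex fitted alone, all probe sets of a gene, and each array left out. Leaving out the 3 doubted arrays, or 2 of them, was chosen after seeing the data.

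The members and the lists were chosen with earlier results of these data known. A paralogue was marked where its name ended in L, or L and a digit, and the rest of the name was a gene's current or older symbol, a condition added after the names were seen. The genes named are the paralogues and their partners, up to 3 called main subunits in each complex with the largest sex difference, those called among strains, those nearest the mark of 2, and up to 4 genes in each list. Genes named as exceptions to a count, and ATPsynB, ATPsynC, ATPsynO and SdhC as examples, were chosen after their values were seen.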

Additional observations from a re-analysis of the deposited data

How the results depend on the processing

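The direction of the sex difference was the same under every alternative for the main subunits except ND-ACP (−0.071 with repeated quantile normalization) and ATPsynbeta, which lay between −0.072 and 0.054 when 1 array was left out and was 0.0467 without the 3 doubted arrays and 0.011 without Cambridge males replicate 1 and France females replicate 3 alone. The count of main subunits higher in males was 14 with median centring, 15 with repeated quantile normalization, 46 with Benjamini-Hochberg adjustment at 0.05 (28.1% of all probe sets), 4 counting differences over 1 alone (13.1%), and 16 to 32 when 1 array was left out. The count among strains in females was 1 under either scaling and without that pair of arrays, and 4 without the 3 doubted arrays. It was 0 with females fitted alone and 0 to 6 when 1 array was left out. Bonferroni adjustment at 0.05 gave 4 (9.03%) and Benjamini-Hochberg adjustment 45 (65.3%). The count among strains in males was 38 (74.3%), and that of the interaction 2 (39.7%), with Benjamini-Hochberg adjustment. For the paralogues, Benjamini-Hochberg adjustment gave 2 in females (65.3% of all probe sets), 15 in males (74.3%) and 11 for the interaction (39.7%). Bonferroni at 0.05 gave 2 for the interaction (3.79%), and males fitted alone gave 0 in males. When 1 array was left out the counts were 4 to 6 in males, 0 to 2 for the interaction, and the interaction gave 1 without the 3 doubted arrays and without that pair. Without that pair the main subunits higher in males numbered 25, and the enzymes of the citric acid cycle 4. The cause of these changes was not tested. Fits on 1 sex had fewer arrays and took their spread from that sex alone. The filter, the variance trend and the use of all probe sets moved no count by over 1.5 times. Same-numbered males and females deviated together in some strains only (correlations of −0.06 to 0.43, with 6 of 14 over 0.1 and the highest, 0.43 and 0.42, in Cambridge replicates 1 and 3), so the numbers were not taken to pair samples in all strains, and with the replicate number as a block the counts were 19 main subunits higher in males, 1 among strains in females and 4 paralogues among strains in males. With 2 or 3 arrays a group, differences among strains of under 1 (log2) would often be missed.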

Other observations

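Probe sets that carry the symbols of several genes were left out of all counts, and 4 of them include a respiratory chain or ATP synthase subunit. The probe set shared by COX6AL2 and Ir75d was 1.38 higher in males and that shared by COX6B and CG18809 was 0.49 higher (adjusted p = 1.18e-09 and 0.00525 from limma). Those shared by ATPsynG and beat-Vb and by ND-13B and CG33493 differed by 0.35 and 0.36 without a call. A pair of main subunits had a second probe set. For ND-MNLL both probe sets were higher in males, by 0.44 and 0.42, and only the brighter was called (adjusted p of 0.00282 and 0.0598). For ATPsynC the brighter differed by 0.41 and the dimmer, at 3.48 in males and 3.53 in females, by −0.05.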
